A study of Mus musculus with 14 samples.

Results

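The genes that encode collagen chains were followed in 4T1 cells, a mouse mammary carcinoma line labelled as breast cancer cells, by ATAC-seq, in which the Tn5 transposase cuts accessible DNA. Members were all protein-coding genes of the mm9 annotation (GENCODE M1) whose symbol reads Col, a number, a and a number. There were 43 of them among 22380 protein-coding genes. The groups were cells kept at 1% oxygen, for 6 h, 12 h, 24 h, 36 h, 48 h or 72 h, and cells in normoxic culture, with 2 samples each and 14 in all. The normoxia labels give no oxygen level, and the treatment text describing 1% oxygen is the same for all samples. A figure legend of the study describes its control 4T1 cells as kept below the oxygen level of air, so normoxia here is a label and not ambient oxygen. All cells came from 1 established line, had no engineered allele named in the labels, and were fixed before transposition. The authors deposited 1 peak list per group, called on both samples together, so there was no replicate error and no test between conditions. All differences below are therefore differences between 7 pooled lists, and in bulk cells a site open in more cells and a site cut more often per cell cannot be told apart.

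Collagens are trimeric proteins of the extracellular matrix, wound from chains with long glycine-rich repeats. Fibrillar collagens form the cables of connective tissue, type IV collagens form the sheet of basement membranes, and the fibril-associated and other classes decorate fibrils, anchor epithelia or span the cell membrane. Chains are hydroxylated on proline and lysine in the endoplasmic reticulum by enzymes that need oxygen, and several of these enzymes are known targets of hypoxia-inducible factor (HIF). In carcinomas much of the fibrillar collagen is made by fibroblasts, whereas epithelial cells supply basement membrane and anchoring collagens.

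Accessibility was read from peaks at 2 distances. A promoter peak lay within 1 kb of any annotated transcript start of a gene, and the wider span ran from 20 kb before to 20 kb after the gene body. Peaks that overlapped between lists were joined, which gave 108795 regions in the genome and 416 in collagen spans. The height of a peak is its fold enrichment, the reads at the summit over the local background that the peak caller expected.

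The 5 windows below, each 100 bases on either side of a summit, carry the main patterns: 2 intronic regions called at every hypoxia time and not in normoxia, the Col1a1 site called from 12 h onwards, and the 2 shared regions whose enrichment was highest relative to normoxia. They are read from the plus strand of mm9, none of them overlaps an exon, and capitals mark matches on either strand to the motifs searched.
Col23a1 intron, chr11:51143929-51144129, capitals CACGTG, a palindrome that holds the HIF core ACGTG on both strands: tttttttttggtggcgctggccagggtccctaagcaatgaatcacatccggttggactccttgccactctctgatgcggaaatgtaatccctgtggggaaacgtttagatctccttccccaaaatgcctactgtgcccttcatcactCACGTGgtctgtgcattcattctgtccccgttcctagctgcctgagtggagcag
Col27a1 intron, chr4:62910084-62910284, capitals the HIF core GCGTG on the minus strand: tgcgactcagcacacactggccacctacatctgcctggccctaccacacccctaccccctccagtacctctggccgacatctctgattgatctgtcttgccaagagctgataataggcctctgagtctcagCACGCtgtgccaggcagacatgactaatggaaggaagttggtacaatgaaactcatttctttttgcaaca
Col1a1 promoter site, chr11:94798418-94798618, capitals the SP1 motif GGGCGG on the minus strand and the HIF core GCGTG: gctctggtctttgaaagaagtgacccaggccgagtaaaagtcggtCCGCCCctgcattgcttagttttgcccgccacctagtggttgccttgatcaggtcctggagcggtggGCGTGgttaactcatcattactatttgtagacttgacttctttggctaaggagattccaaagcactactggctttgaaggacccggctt
Col8a1 intron, chr16:57703979-57704179, no match to any motif searched: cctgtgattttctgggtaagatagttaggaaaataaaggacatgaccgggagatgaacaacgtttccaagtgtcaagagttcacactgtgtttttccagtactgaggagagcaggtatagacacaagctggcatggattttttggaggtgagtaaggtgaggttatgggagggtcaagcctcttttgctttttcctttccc
Col12a1 intron, chr9:79458206-79458406, capitals the AP-1 motif TGACTCA on the minus strand, found 2 times: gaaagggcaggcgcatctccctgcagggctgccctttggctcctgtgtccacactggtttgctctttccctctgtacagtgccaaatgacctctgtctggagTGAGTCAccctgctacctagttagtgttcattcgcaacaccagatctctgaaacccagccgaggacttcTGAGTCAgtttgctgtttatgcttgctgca

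The lists differed in depth and in how easily a peak was called. They held between 49006 peaks at 6 h and 81732 at 12 h, against 60070 in normoxia. A peak at the genome-wide background needed at least 11, 8, 7, 8, 9 and 9 reads in the hypoxia lists from 6 to 72 h, which is 3.38 to 3.79 times the background of those lists, against 5 reads and 5.40 times the background in normoxia. A site with the same enrichment could thus be called in hypoxia and missed in normoxia. Over the regions found in all 7 lists, the median log2 ratio of enrichment was −0.41, 0.07, 0.04, −0.13, −0.02 and −0.23 from 6 to 72 h, and the ratios given below are centred on these medians. Collagen regions made up between 0.359% (95% exact interval 0.313 to 0.409) of the regions called at 72 h and 0.397% (0.355 to 0.443) of those called at 12 h, against 0.369% (0.322 to 0.422) in normoxia. These intervals overlap and cover counting error only. Promoter peaks were present throughout at 9 of 10 epithelial marker genes, whereas of 7 fibroblast markers only Pdgfra had them. Of 5 endothelial markers only Pecam1 had a promoter peak, at 12, 36 and 48 h, and of 6 immune markers Csf1r had one in all 7 lists and Lyz2 at 36 h alone. Defining genes of fibroblasts such as Dcn, Lum and Postn had no promoter peak in any list.

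Fewer collagen promoters than promoters of other genes were called accessible. In normoxia 14 of the 43 genes had a promoter peak (32.6%, against 51.0% of all protein-coding genes), and from 6 to 72 h there were 16, 21, 16, 17, 19 and 18. In hypoxia these were 37.2%, 48.8%, 37.2%, 39.5%, 44.2% and 41.9%, against 49.7%, 54.3%, 52.6%, 52.5%, 53.0% and 51.0% of all genes. In all 7 lists a promoter peak was present at 13 collagen genes, which is 30.2% of them, against a background of 46.6%. No list held one for 17 collagen genes (39.5%), against 42.4% of all genes. The remaining genes fell into 12 with a peak at 1 or more hypoxia times and none in normoxia (27.9%, against 6.62% of all genes), and 1 with a normoxia peak that was missing at a hypoxia time (2.33%, against 4.44%).

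**Figure D1:**
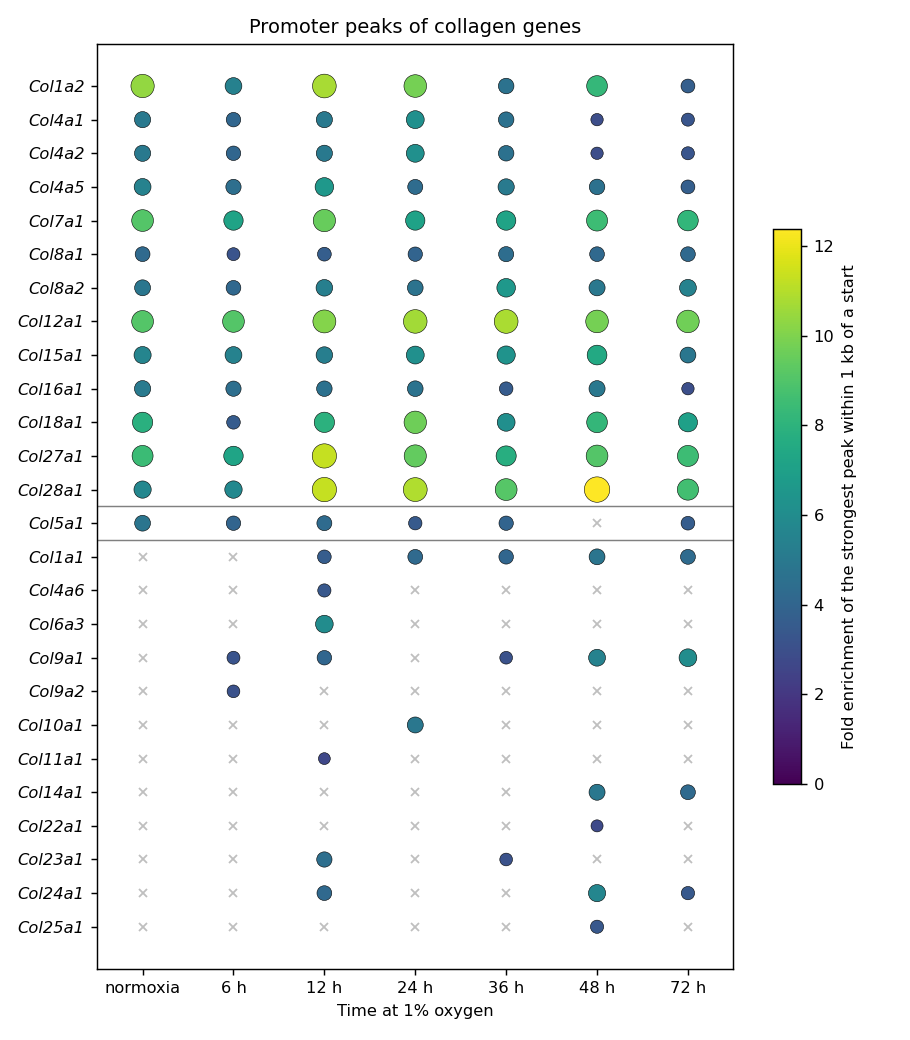
Promoter peaks of the 26 collagen genes that had any, with normoxia and time at 1% oxygen on the horizontal axis. Circle size and colour give the fold enrichment of the strongest peak within 1 kb of a start, and crosses mark lists without a peak; the upper 13 genes have a circle in every column, Col5a1 lacks only the one at 48 h, and the lower 12 start empty in normoxia.

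The share of new promoter peaks exceeded the genome-wide share at every time, but the collagen genes were also longer and had more annotated starts. Their bodies had a median length of 114 kb, against 15.4 kb for all protein-coding genes, and 90.7% of them had more than 1 annotated start, against 56.0%. Among genes without a normoxia promoter peak, 12 of 29 collagen genes gained one (41.4%), against 13.5% of all genes. With 4 or more starts the shares were 6 of 12 (50%) against 29.2%, with 2 to 3 starts 5 of 14 (35.7%) against 16.4%, and with 1 start 1 of 3 (33.3%) against 8.70%. In the order of time, the number of collagen genes with a new promoter peak was 2, 7, 2, 3, 6 and 4, and the background share of all genes was 1.55%, 3.81%, 2.79%, 2.89%, 3.11% and 2.39%. The counts were thus highest at 12 and 48 h, which are also the lists with the most peaks. In the other direction no collagen gene lost its normoxia promoter peak at any time but 48 h, when 1 did, and the background share of all genes was 2.89%, 0.567%, 1.26%, 1.43%, 1.1% and 2.37% in the same order.

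The new promoter peaks were low. The strongest peak of each gene and hypoxia list, 24 values, ranged from 2.69 to 6.04 with a median of 4.12, against 2.93 to 12.4 with a median of 5.63 over 78 such values of the 13 genes called in all lists. At 5 of the 12 genes no peak exceeded 5.40 times the genome-wide background, which a normoxia peak needed at the least, and 7 of the 12 had a peak at only 1 hypoxia time. The part of this calling limit in the missing normoxia peaks was not tested. With lists made equal in length, by keeping the 20000 strongest peaks of each, 3 collagen genes had a new promoter peak (6.98%, against 7.09% of all genes), which is no excess over the background. None of these 3, Col27a1, Col28a1 and Col8a2, was among the 12. In those equal lists 2 genes, Col12a1 and Col7a1, were called throughout (4.65%, against 25.1%). At a −log10 q of 5 or more, 8 collagen genes had a new promoter peak (18.6%, against 6.48% of all genes).

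Fibrillar chains were divided. Among the 11 fibrillar genes, 2 were accessible at a promoter throughout, 3 gained one in hypoxia, 1 lost one and 5 had none. Col1a1, which encodes the main chain of type I collagen, was called at its promoter in every list from 12 h on, and neither at 6 h nor in normoxia. At the site nearest its 5′ start the fold enrichment was 3.29, 4.22, 4.04, 4.83 and 4.26 at 12, 24, 36, 48 and 72 h, on 10, 11, 12, 16 and 14 reads. This site lay 980 bases inside the gene, near an internal start, and is the window with the GCGTG core printed above. A second peak 1641 bases inside the gene was called at 12, 48 and 72 h, with enrichments of 3.59, 3.98 and 3.12. Its partner chain Col1a2 was accessible throughout, but at a start 26326 bases into the gene and not at its 5′ end. There the enrichment was 10.4 in normoxia and 5.41, 10.8, 9.79, 4.66, 8.24 and 3.69 from 6 to 72 h. The Col1a2 values thus fell below normoxia at every time except 12 h. Col3a1, the type III chain, had no promoter peak in any list and 2 regions in its whole span.

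Col5a1 and Col5a2 encode chains of type V collagen, which takes part in starting fibrils. The Col5a1 peak covered its 5′ start, with an enrichment of 4.80 in normoxia, 3.98, 4.30, 3.45 and 3.95 at 6 to 36 h, no peak at 48 h and 3.61 at 72 h. It was the only collagen gene with a normoxia promoter peak missing in hypoxia, a count that is 0 without the 48 h list, and its peaks rested on 9 to 19 reads. At a −log10 q of 5 or more the direction of Col5a1 turned, since its normoxia peak, at 4.95, was then left out while those at 6 and 12 h, at 5.62 and 5.45, were kept. At that threshold 6 other genes had a normoxia promoter peak that was missing at 1 or more hypoxia times (14.0%, against 5.50% of all genes). These were Col16a1, Col18a1, Col1a2, Col4a1, Col4a2 and Col4a5, all among the 13 called throughout without it. Col5a2, Col5a3, Col2a1, the chain of cartilage type II collagen, and Col11a2 had none in any list. Col27a1, a fibrillar chain of developing cartilage, had 2 internal starts accessible in all lists. At the start near 69446 bases into the gene the enrichment was 8.46 in normoxia and 7.25, 11.3, 9.42, 6.52, 9.07 and 8.50 from 6 to 72 h. Near its 5′ end 2 further Col27a1 sites were called at 12, 24, 48 and 72 h and not in normoxia. The site 1336 bases into the gene had 3.86, 6.52, 5.40 and 3.42, and the one at 2191 bases had 3.35, 3.95, 5.28 and 4.12. Col24a1 gained a promoter peak 977 bases inside its 5′ start at 12, 48 and 72 h, with enrichments of 4.19, 5.68 and 3.41, and Col11a1, the major chain of type XI collagen, gained one at an internal start at 12 h alone, of 2.69 on 8 reads.

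Type IV chains are encoded in 3 head-to-head pairs, whose members are transcribed away from each other, and the pairs differed. The annotated 5′ starts of Col4a1 and Col4a2 lie 21 bases apart and overlap, those of Col4a3 and Col4a4 are 72 bases apart and those of Col4a5 and Col4a6 are 1309 bases apart. The Col4a1 and Col4a2 pair, the chains of most basement membranes, shared 1 promoter peak in all lists. Its enrichment was 5.03 in normoxia and 4.03, 5.03, 6.15, 4.63, 2.93 and 3.27 from 6 to 72 h, so that the last 2 times were the lowest. The Col4a3 and Col4a4 pair, known from kidney glomeruli, had no promoter peak in any list. In the third pair Col4a5 was accessible throughout, at 5.45 in normoxia and 4.47, 6.60, 4.35, 5.06, 4.64 and 3.69 in hypoxia, while Col4a6 had a peak at 12 h alone, of 3.35 on 12 reads.

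Of the 6 beaded-filament genes of type VI collagen, 5 had no peak within 1 kb of a start in any list, against 42.4% of all genes. Only Col6a3 had a promoter peak, at an internal start and at 12 h alone, with an enrichment of 5.99 on 19 reads. The spans of the 6 genes nevertheless held 34 regions, 14 of them in all lists, a pattern of 33.2% of all regions. Col6a1 and Col6a2 had 4 regions and 1 region. Within 5 kb of a start Col6a1, Col6a3 and Col6a4 had a peak in all lists, as had 53.8% of all genes.

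The anchoring fibril gene and both multiplexins were called at a promoter in all lists, as were 2 of 3 short-chain network genes. Col7a1, which forms the anchoring fibrils below the epidermis, had an enrichment of 9.06 in normoxia and of 7.19, 9.49, 7.14, 7.21, 8.47 and 8.17 from 6 to 72 h at its 5′ end. Another Col7a1 start, 29113 bases into the gene, was called in all lists at 3.55 to 5.08. The multiplexins Col15a1 and Col18a1, which are proteoglycans of basement membrane zones, were also called in every list. At its 5′ start Col18a1 had 7.84 in normoxia and 3.56, 7.89, 9.63, 5.56, 8.21 and 5.91 in hypoxia. An internal Col18a1 start was called in 6 lists, at 4.00 in normoxia, not at 6 h, and at 4.44, 4.19, 6.10, 7.81 and 7.01 from 12 to 72 h. The internal start was above its normoxia value at every time it was called, and above the 5′ start at 36 and 72 h. Col15a1 was accessible at an internal start, at 5.63 in normoxia and 5.46, 5.25, 6.15, 6.38, 7.47 and 4.84 in hypoxia. Among the short-chain network genes all 3 had promoter peaks. Col8a1 had 4.22 in normoxia and 3.22, 3.66, 3.96, 4.40, 4.17 and 4.17 from 6 to 72 h, and Col8a2, at an internal start, had 4.87 in normoxia and 4.16, 5.30, 4.74, 6.63, 4.98 and 5.45. Col10a1, the chain of hypertrophic cartilage, gained a peak at 24 h alone, of 4.92 on 13 reads, 237 bases before its start.

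The fibril-associated genes held the highest constant 5′ promoter. By number they also had the most genes with new promoter peaks, 4 of 9, against 2 of 4 transmembrane genes and 6.62% of all genes. Among these 4, Col22a1 and Col9a2 reached 3.57 and 4.00 times the background, under the normoxia limit of 5.40. Col9a1 had no peak at its 5′ end. Col12a1, a chain found on the surface of type I fibrils, had 9.08 in normoxia and 9.06, 10.1, 10.7, 10.8, 9.81 and 9.72 from 6 to 72 h, on 84 to 172 reads. Col16a1 was called throughout, at 5.08 in normoxia and 4.47, 4.61, 4.71, 3.56, 4.97 and 2.95 in hypoxia, and was lowest at 72 h. Col9a1, a chain of cartilage type IX collagen, had a peak at an internal start 18459 bases into the gene in 5 hypoxia lists and none in normoxia or at 24 h. Its enrichment was 3.23, 4.05, 3.11, 5.47 and 6.04 at 6, 12, 36, 48 and 72 h. Col14a1 gained a peak 1282 bases before its start at 48 and 72 h, of 4.93 and 4.24 on 26 and 18 reads. Col22a1 at 48 h (2.79) and Col9a2 at 6 h (3.11) had 1 peak each. Col19a1, Col20a1 and Col9a3 had none. Of the transmembrane chains Col23a1 gained a peak directly before its start at 12 and 36 h (4.49 and 3.11), Col25a1 gained one at 48 h (3.35), and Col13a1 and the hemidesmosomal Col17a1 had none. Col28a1, a chain outside these classes, was called at an internal start 168843 bases into the gene, at 5.71 in normoxia and 5.79, 11.3, 10.9, 9.12, 12.4 and 8.61 from 6 to 72 h, which was the highest collagen promoter value of any list.

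A promoter peak in any list was found at 26 collagen genes (60.5%, against 57.6% of all genes), and all 43 had at least 1 region in their span (100%, against 87.0%). The spans covered 6.70 Mb and held 62.1 regions per Mb, against 53.5 around all protein-coding genes. By position 242 of the 416 regions were intronic, 38 touched an exon, 34 lay within 1 kb of a start of their own gene, 56 lay in the 5′ flank and 46 in the 3′ flank. Within 1 kb of the start of another gene there were 20, and 14 lay in the spans of more than 1 collagen gene. Col4a2 had the most with 25, then Col25a1 with 24, and Col14a1 and Col27a1 with 21 each. Col25a1 has the longest body, 419 kb. Of the 17 genes without a promoter peak 15 had a region in all 7 lists (88.2%, against 42.0% of all such genes, whose spans are not matched in length).

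**Figure D2:**
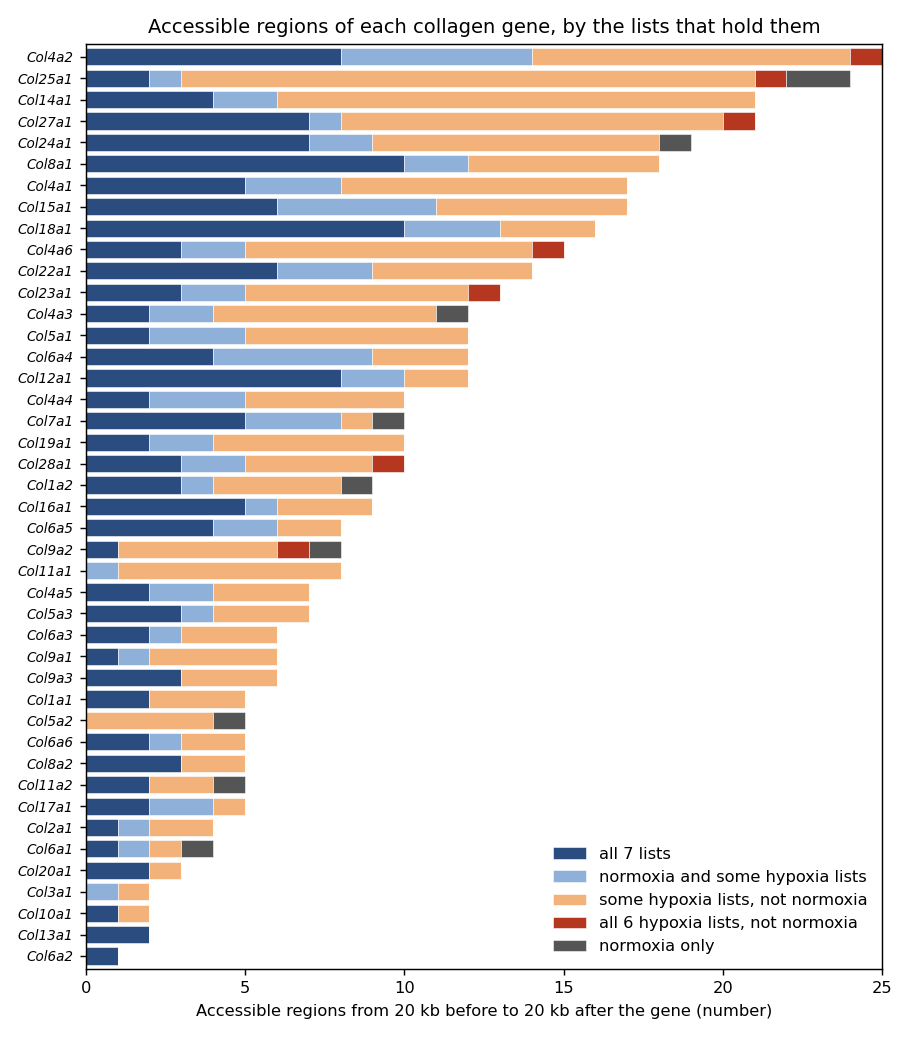
Number of accessible regions in the span of each of the 43 collagen genes (horizontal axis), coloured by the lists that hold them, with regions in the spans of more than 1 gene counted for each. Col4a2 has 25 regions and Col6a2 has 1. Regions found in some hypoxia lists and not in normoxia are the most common kind, 195 of 416 (46.9%), as over all regions (45.3%).

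Most strongly enriched were introns, not promoters. An intron of Col24a1 128 kb from its 5′ start (chr3:145083292-145084222) was the strongest collagen region in normoxia and at 6, 12 and 72 h. It had 16.9 in normoxia and 12.1, 15.6, 15.1, 14.8, 14.1 and 14.9 from 6 to 72 h, on 81 to 131 reads. A Col6a5 intron was strongest at 24 and 36 h and had 13.7 in normoxia and 11.2, 15.5, 16.2, 15.5, 14.1 and 11.6 in hypoxia. At 48 h it was a Col19a1 intron, which had 15.2 in normoxia and 8.60, 14.1, 16.1, 11.9, 15.0 and 10.5 in hypoxia. In normoxia the promoters of these 3 genes were without a peak.

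**Figure D3:**
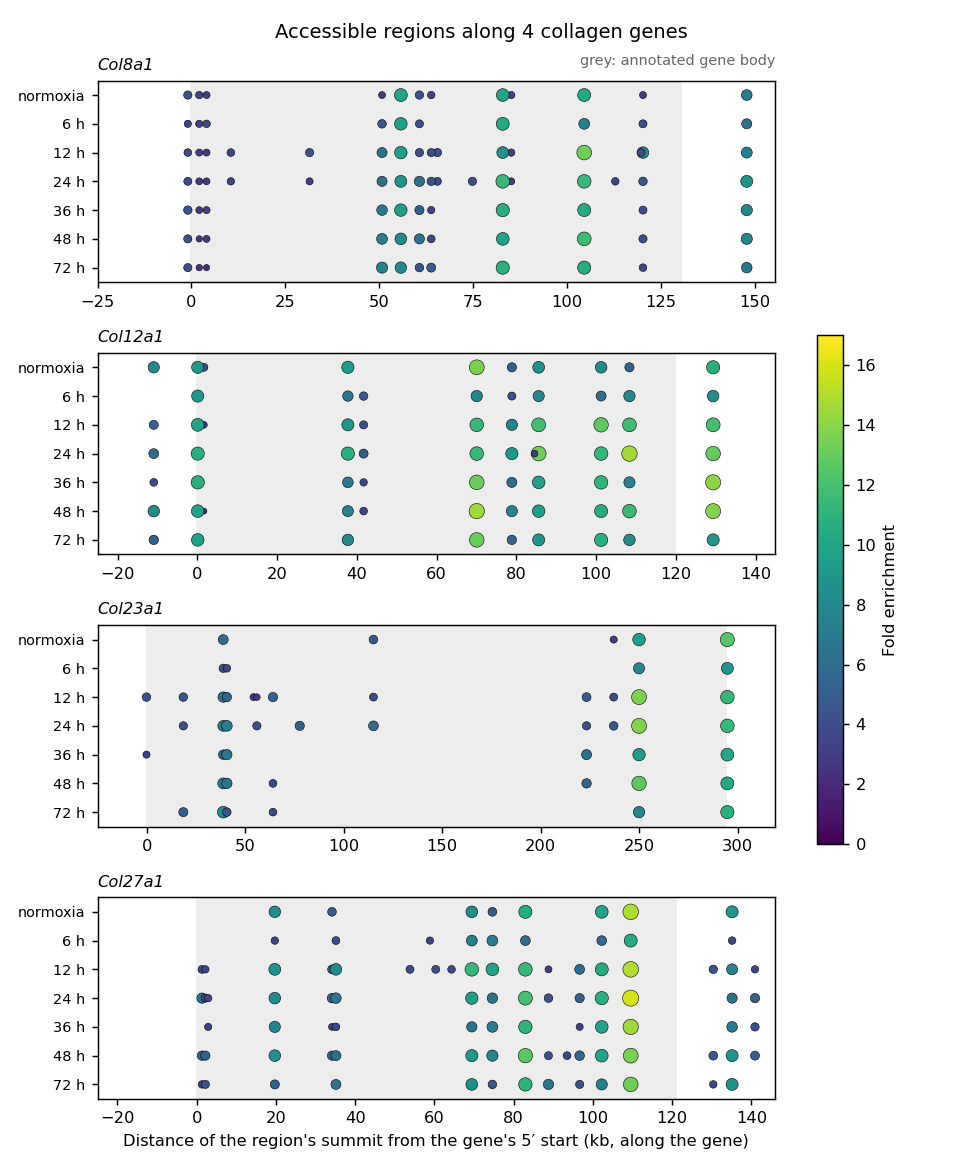
Regions along Col8a1, Col12a1, Col23a1 and Col27a1 by distance of the summit from the 5′ start (horizontal axis, kb) and list (vertical axis), with circle size and colour giving fold enrichment and grey the gene body. The Col12a1 intron at 108 kb has a small circle in normoxia and a large one at 24 h, and the Col23a1 region at 40.6 kb is absent in normoxia next to a neighbour that is present.

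How the regions were shared between lists differed little from the rest of the genome. Of the 416 regions 137 were in all 7 lists (32.9%, against a background of 33.2%). In normoxia and some hypoxia lists there were 67 (16.1%, against 17.3%). In 1 to 5 hypoxia lists and not normoxia there were 195 (46.9%, against 45.3%). Regions called at 12 h alone made up 10.6% of collagen regions, against 7.89% of all regions. All 6 hypoxia lists and not normoxia held 7 collagen regions (1.68%, against 1.5%), and normoxia alone held 10 (2.40%, against 2.75%). These shares were near the background and are given as a description of where the regions lie.

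The 7 regions present at every hypoxia time lay in introns of Col27a1, Col23a1, Col25a1, Col4a6, Col28a1 and Col4a2 and in the 5′ flank of Col9a2. The Col27a1 region, 35.1 kb into the gene, had enrichments of 3.83, 8.33, 6.82, 3.67, 6.18 and 6.15 from 6 to 72 h. The Col23a1 region, 40.6 kb into this transmembrane collagen gene and the window with CACGTG printed above, had 3.56, 5.41, 7.17, 6.60, 6.68 and 4.42, on 16 to 34 reads. The Col25a1 region, 220 kb from the start, had 3.78, 3.59, 4.73, 5.76, 5.25 and 4.35. In raw enrichment these 3 regions were at or near their lowest at 6 h and differed in when they were highest. The whole 6 h list was also lower, by a median log2 ratio of −0.41 over shared regions, and its part was not tested. The Col4a6 region had 4.47, 4.47, 3.79, 4.56, 4.29 and 5.07, the Col28a1 region 2.77, 4.21, 3.69, 3.93, 4.47 and 4.15, and the Col4a2 and Col9a2 regions stayed between 2.35 and 4.63. The number of such regions was 13 without the 6 h list. The share of all regions with this pattern then rose as well, to 3.65%, so the higher count is not particular to collagen regions. With peaks at a −log10 q of 5 or more the number was 3, and the share of all regions was 1.72%.

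**Figure D4:**
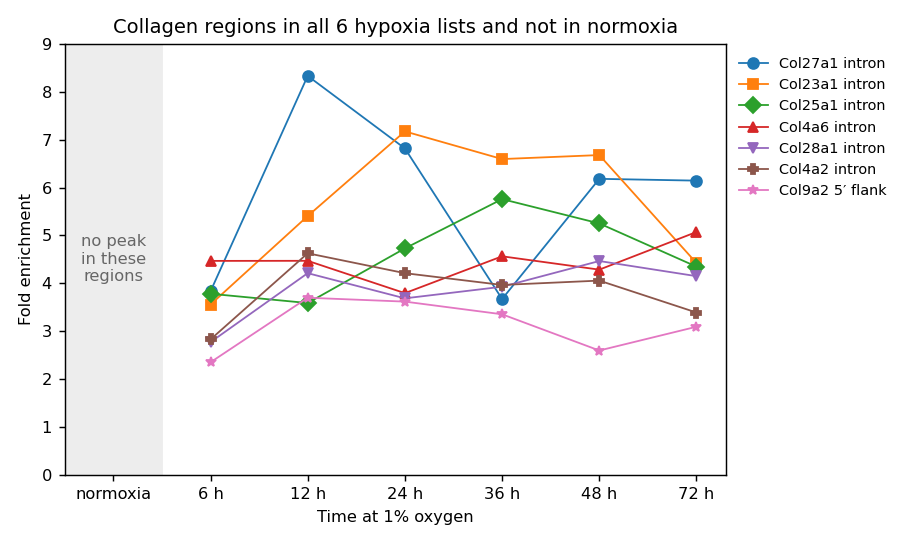
Fold enrichment (vertical axis) of the 7 collagen regions that were called at every time at 1% oxygen and not in normoxia (horizontal axis, shaded where no peak was called). The Col27a1 region reaches 8.33 at 12 h and the Col23a1 region 7.17 at 24 h, and the Col9a2 flank stays between 2.35 and 3.70.

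The 10 normoxia-only regions were weak. The strongest was a Col9a2 intron with an enrichment of 5.45 on 10 reads, then a Col4a3 intron with 4.67 on 8 reads, the 5′ flank of Col7a1 with 4.23 on 11 reads, the 5′ flank of Col25a1 with 4.17 on 8 reads, and introns of Col5a2 and Col24a1 with 4.15 on 7 reads each. The others lay in the 3′ flanks of Col11a2 and Col1a2, a Col25a1 intron and the 5′ flank of Col6a1, with 3.19 to 3.63. They rested on 6 to 11 reads in the normoxia list, which had the lowest background. Raw read limits, 5 in normoxia and 7 to 11 at the hypoxia times, are therefore not comparable between lists. Relative to background the limit was 5.40 in normoxia and 3.38 to 3.79 in hypoxia, so equal reads over background were called more easily in hypoxia. With peaks at a −log10 q of 5 or more, 2 such regions were left.

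In the 137 shared regions the centred ratios of hypoxia over normoxia lay around 0. The median over regions of the mean centred log2 ratio was 0.01 (interquartile range −0.15 to 0.22), against −0.01 over all 36113 shared regions. By time the collagen medians were 0.02, −0.00, 0.04, 0.03, 0.04 and 0.07. Past 1.5-fold there were 11 regions higher (8.03%, against 4.06% of all shared regions) and 1 lower (0.730%, against 1.79%). All 11 had a normoxia enrichment under 6. Of collagen regions under 6 in normoxia 11 of 40 were higher (27.5%, against 14.6% of all such regions), and of those at 6 or more 0 of 97 were (0%, against 0.645%). A low normoxia value enters the ratio itself, and its part in these calls was not tested.

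**Figure D5:**
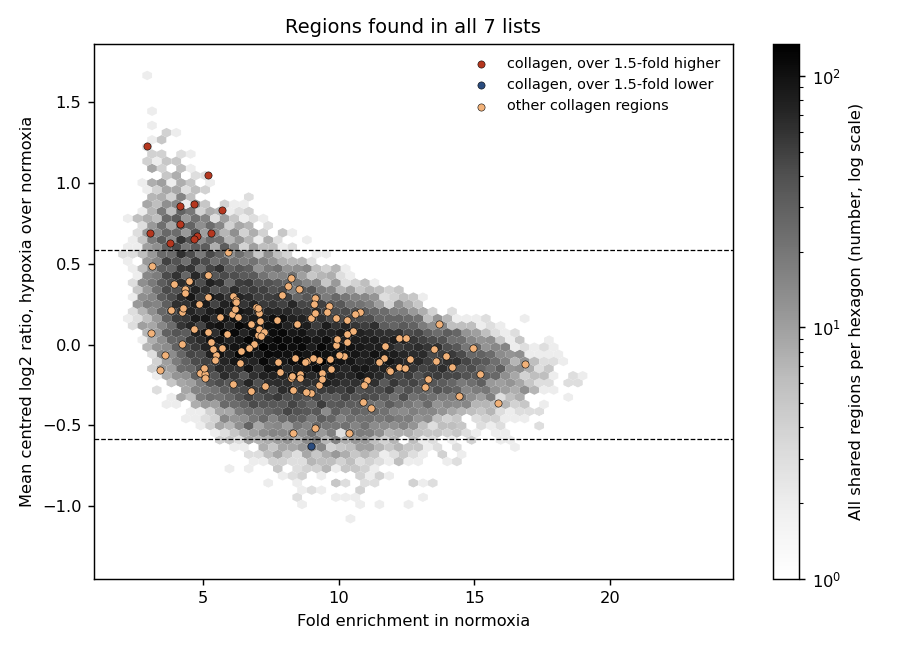
Mean centred log2 ratio of enrichment, hypoxia over normoxia (vertical axis), against enrichment in normoxia (horizontal axis) for regions in all 7 lists: circles are collagen regions, grey hexagons all regions, and dashed lines 1.5-fold. The 11 collagen regions above the upper line all lie under an enrichment of 6 in normoxia.

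A Col8a1 intron, 50.8 kb into this gene of a vessel-wall and corneal collagen, stood highest. Its enrichment was 2.94 in normoxia and 4.55, 6.21, 6.25, 6.88, 7.16 and 7.63 from 6 to 72 h, on 22 to 58 reads in hypoxia and 11 in normoxia, with a mean centred log2 ratio of 1.23. Every hypoxia value lay above the normoxia value and each was higher than the one before. The Col8a1 promoter itself had no such course, at 3.22 to 4.40 in hypoxia and 4.22 in normoxia. A Col12a1 intron 108 kb from the start, the window with AP-1 matches printed above, had 5.19 in normoxia and 7.94, 11.7, 14.6, 7.66, 11.4 and 8.11 in hypoxia (mean 1.05). The next highest were the 5′ flank of Col10a1 (0.87), a Col24a1 intron (0.86) and the internal start of Col28a1 (0.83). The Col10a1 flank had 4.67 in normoxia and 4.00, 11.7, 8.47, 10.2, 9.71 and 6.25 in hypoxia, so that only 6 h lay below normoxia in raw enrichment. Centred on the shift of the whole 6 h list, that value was 0.19 above normoxia on the log2 scale. The Col24a1 intron had 4.15 in normoxia and 3.94, 11.0, 10.3, 4.35, 7.33 and 7.95 in hypoxia.

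Lower regions were fewer and closer to no change. Another Col24a1 intron, 229 kb from the start, was the one past 1.5-fold, at −0.63, with 8.97 in normoxia and 2.84, 9.17, 7.14, 4.34, 6.62 and 4.46 in hypoxia. A Col18a1 intron (−0.55), the internal Col1a2 start described above (−0.55), a Col6a5 intron (−0.52) and a region in the Col9a3 span that is within 1 kb of the start of Ogfr (−0.39) came next. The Col18a1 intron had 8.33 in normoxia and 4.56, 6.92, 5.11, 4.88, 6.17 and 4.39 in hypoxia. The Col6a5 intron had 9.13 in normoxia and 4.37, 7.56, 5.97, 5.90, 7.95 and 4.54 in hypoxia. In these introns of Col18a1 and Col6a5 every hypoxia value lay below the normoxia value. The region near Ogfr, a gene for an opioid growth factor receptor, had 11.2 in normoxia and 7.45, 9.06, 7.25, 8.37, 7.93 and 7.51 in hypoxia, also lower at every time.

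Motifs were searched on both strands in the bases within 100 of each summit, as letters only. TGACTCA, the AP-1 motif, was in 37.3% of the 416 collagen windows against 31.2% of all 108795. ACGTG or GCGTG, the HIF core, was in 25.0% against 23.6%, CCAAT (NFY) in 23.1% against 25.1%, GGGCGG (SP1) in 7.69% against 11.3% and GGAATG (TEAD) in 19.2% against 16.5%. Within the 137 shared collagen regions the shares, against all shared regions, were 51.1% and 37.8% for AP-1, 25.5% and 31.7% for the HIF core, 18.2% and 26.3% for NFY, 13.1% and 22.5% for SP1 and 24.8% and 17.1% for TEAD. The HIF core was thus near the background among all collagen regions and below it among the shared ones. Windows were not matched for location, and 14 of the 137 shared collagen regions lay within 1 kb of a start of their own gene. Among the 7 hypoxia-only regions 3 held a HIF core, those of Col23a1, Col27a1 and Col9a2, against 21.3% of all such regions, and 3 held TGACTCA, those of Col9a2, Col4a2 and Col4a6, against 38.7%. A match describes the letters in a window and not the binding of a factor.

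Other genes of the collagen pathway differed by group, against 46.6% of all genes with a promoter peak in all lists. Over all genes 6.62% had a promoter peak in hypoxia and none in normoxia, and 4.44% had a normoxia peak missing at a hypoxia time. Of 15 assembly enzymes and chaperones 12 had a promoter peak in all 7 lists, among them P4ha1, Plod1 and Plod2 for prolyl and lysyl hydroxylases and Serpinh1 for a collagen chaperone. P4ha2, which encodes another catalytic subunit of prolyl 4-hydroxylase, had no promoter peak in normoxia and one in every hypoxia list, at 4.47, 6.29, 4.57, 4.66, 7.10 and 5.68 from 6 to 72 h on 12 to 24 reads. P4ha3 gained one at 48 h alone (3.13). Of 12 maturation genes 6 were accessible in all lists, Tll1 gained a peak and Loxl2, a lysyl oxidase-like enzyme, lacked its peak at 6 and 72 h. Of 10 receptors 5 were accessible in all lists, among them Ddr1 and Itga2, and the endocytic receptor Mrc2 lacked its peak from 24 h on. None of 6 degradation genes was called at its promoter throughout. The membrane protease gene Mmp14 had one from 12 h on and none in normoxia, at 2.05 to 2.51, and the secreted protease genes Mmp9 and Mmp13 lacked theirs at 6 h alone. The 6 h list held the fewest peaks, and 2.89% of all genes lacked their normoxia promoter peak there, the highest share of any time. Mmp13 had 6.14 in normoxia and 7.29, 8.60, 9.01, 10.5 and 6.10 from 12 to 72 h.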

How the data were processed

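Bulk ATAC-seq of fixed 4T1 cells gave 14 samples in 7 groups, taken from the sample labels. The authors aligned reads to mm9 with Bowtie2 2.1.0, used Picard 1.79 and called peaks with MACS2 at a q-value of 0.05, per the labels and the submitters' processing notes. Each deposited list pools the 2 samples of a group. Height in the deposited lists is a fold enrichment, the reads at a summit relative to those expected locally, and significance is given by the authors as −log10 p and −log10 q.

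From these, promoter peaks, merged regions and centred log2 ratios were computed with Python 3.11.15, numpy 2.4.6, pandas 2.3.3 and scipy 1.17.1. No pseudocount was added to the deposited heights, and no low-value filter was applied. The strongest peak by −log10 q stood for a region in each list. Summit reads were recovered by solving fold enrichment and −log10 p under a Poisson model, which assumes the MACS2 formula with 1 added to both terms. The code was tested on simulated data made with that formula, which does not show that the authors used it. Peak ends lay within the chromosome lengths of the mm9 reference on all 21 chromosomes. Lists pool replicates, so no value carries a replicate error, and no p-value or paired fit was computed. Fewer peaks in 1 list can follow from its depth, which the read limits given in the text describe.

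All members are accounted for by class. Values in each list are given for promoters that changed or were present in all lists, the 5 strongest regions of hypoxia only and of normoxia only, the 5 shared regions with the highest and lowest ratios, the strongest region of each list and the genes with the most regions. Col21a1 and Col26a1, and Mia3 of the pathway lists, were not in the annotation. The members, lists and motifs were chosen with earlier results of these data known. Alternatives were a −log10 q of 5 or more, the 20000 strongest peaks of each list, other promoter distances (5 kb, the 5′ end only, the summit), gene bodies only, merging within 200 bases, leaving out lists, no centring and other measures of height.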

Additional observations from a re-analysis of the deposited data

How the results depend on the processing

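The deposited lists hold no separate replicates, and depth and calling limits differ between lists. No paired analysis was possible because the lists pool both replicates. Of 75 alternatives over 7 results, 58 stayed within 1.5 times the reported count or within 0.1 of the reported log2 ratio, and 17 did not. Why each of the 17 moved was not tested beyond what the alternative itself removes.

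Genes with a promoter peak in all lists were 13 as reported (30.2% against 46.6% of all genes). They became 7 at a −log10 q of 5 or more (16.3% against 41.8%). With the 20000 strongest peaks of each list there were 2 (4.65% against 25.1%). At 5 kb there were 20 (46.5% against 53.8%) and at the 5′ end alone 8 (18.6% against 43.5%). Genes with new promoter peaks, 12 as reported, became 3 with the 20000 strongest peaks (6.98% against 7.09% of all genes). These 3 were Col27a1, Col28a1 and Col8a2, none of them among the 12. At the stricter q there were 8 (18.6% against 6.48%), 7 of them among the 12, and Col5a1. At the 5′ end alone there were 9 (20.9% against 6.28%), at 5 kb 10 (23.3% against 9.23%). By the summit there were 13 (30.2% against 6.49%). Genes with a missing peak, 1 as reported (2.33% against 4.44% of all genes), became 6 at the stricter q (14.0% against 5.50%). At 5 kb there were 4 (9.30% against 6.52%), so the direction turned at the stricter q and at 5 kb. Without the 48 h list, a choice made after seeing the data, there were 0, against 4.37% of all genes. Shared regions, 137, became 42 with the strongest peaks. Hypoxia-only regions, 7, became 3 at the stricter q, 3 with the strongest peaks and 13 without the 6 h list. The share of all regions with this pattern was 1.72%, 1.78% and 3.65% in the same order, so it also rose without the 6 h list. Normoxia-only regions, 10, became 2 at the stricter q, 2 with the strongest peaks and 5 in gene bodies. The median centred log2 ratio, 0.01, was 0.13 with −log10 q in place of enrichment (−0.03 over all regions) and −0.10 without centring (−0.12 over all regions).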
